A study of Mus musculus with 55 samples.

Results

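NF-kB is a family of dimeric transcription factors held in check by inhibitor proteins, and the 10 genes described here are its 5 subunits (Nfkb1, Nfkb2, Rel, Rela and Relb) and 5 of its inhibitors (Nfkbia, Nfkbib, Nfkbie, Nfkbiz and Tnfaip3). They were taken by symbol from the 55421 genes of the first table of read counts, and all 10 were found there and again among the 35976 genes of a second table. The first table holds 46 bulk RNA-seq libraries of mouse bone marrow cells sorted into long term and short term hematopoietic stem cells (LT-HSC and ST-HSC), common myeloid progenitors (CMP), granulocyte-monocyte progenitors (GMP), megakaryocyte-erythroid progenitors (MEP) and common lymphoid progenitors (CLP). Each population was taken from wildtype (WT) and Tet2-/- mice, with 4 libraries a group except 3 of WT LT-HSCs and 3 of WT ST-HSCs. Tet2 encodes an enzyme that oxidises 5-methylcytosine in DNA. The Tet2-/- mice were C57BL/6 mice with floxed Tet2 alleles and Mx1-Cre, a Cre that interferon switches on throughout the blood system and in other interferon-responsive tissues. Deletion was induced at a few weeks of age with poly(I:C), itself an inducer of interferon, and the mice were kept for several months before analysis. For the WT mice that were sequenced, treatment with poly(I:C) is not stated in the sources used here. The second table holds LT-HSCs labelled WT, Sting-/- and Tet2;Sting DKO, with 3 libraries each. Sting is the adaptor of the cytosolic DNA sensing pathway, and the DKO mice combine its germline loss with inducible deletion of Tet2. The labels state that 200 cells were sorted for each library and the methods a larger number per group. The RNA was amplified over its full length.

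The first 46 libraries held 50458473 to 102148079 counts (median 70118186.5) and the 9 libraries of the second set 26776517 to 78682096 (median 40641627). For each of LT-HSCs, GMPs, MEPs and CLPs, the log2 levels of 10 marker genes were averaged. That average was higher in all 7, 8, 8 and 8 libraries of those populations than in any other library. Levels are given in CPM, read counts scaled to a common library size. As a sum, the LT-HSC markers overlapped, at 495 to 837 CPM in WT LT-HSCs and 514 to 548 CPM in WT ST-HSCs. The summed level of 8 B cell markers ran from 145492 to 278768 CPM in WT CLPs and from 908 to 130868 in Tet2-/- CLPs. On this sum the CLP libraries of the genotypes stood apart, and Tet2-/- replicate 2 was the lowest. Of these markers, Pax5 and Vpreb1 were at 0 in every WT CLP library. The summed level of 10 GMP markers spread widely, at 57.9 to 3813 CPM in WT and 83.0 to 13077 CPM in Tet2-/- CLPs. All 46 libraries of the first set carried Xist, a transcript of the inactive X, and no Eif2s3y or Ddx3y, both Y-linked. In the second set the libraries labelled WT had Xist at 91.4 to 244 CPM, whereas those labelled Sting-/- and DKO had Eif2s3y at 154 to 323 CPM, so each comparison with that WT group was also one between sexes. Counts over the whole Tet2 gene did not fall in Tet2-/- libraries (edgeR adjusted p = 0.625 for the mean effect) and cannot show the loss of exons, so they check nothing. For Tmem173, the gene of Sting, 3 of the 6 libraries with a Sting-deficient label held at least 1128 counts and 1 of the 3 labelled WT held 0, and the groups of the second set are therefore called by their labels.

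In resting cells, inhibitors of the IkB family bind NF-kB dimers and keep them in the cytoplasm. Signals from TNF, interleukin-1 and Toll-like receptors lead to the destruction of these inhibitors, and the freed dimers enter the nucleus and switch on genes of inflammation and survival, among them several of their own inhibitors. This feedback is why mRNAs of inhibitors such as Nfkbia are widely used as readouts of the pathway, and in blood-forming tissue the pathway takes part in stem cell maintenance, in emergency production of myeloid cells and in lymphoid development.

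All coordinates are on mm10 with the GENCODE vM21 annotation and span the whole gene. Among the inhibitors, Nfkbia (chr12:55489410-55492647, minus strand) encodes IkB-alpha, the classical rapid feedback inhibitor. Nfkbib (chr7:28758251-28767512, minus strand) and Nfkbie (chr17:45555703-45563169, plus strand) encode IkB-beta and IkB-epsilon, which also retain dimers in the cytoplasm. Nfkbiz (chr16:55811375-55838899, minus strand) encodes IkB-zeta, an inducible nuclear member that can also assist transcription of secondary response genes. Tnfaip3 (chr10:19000910-19015657, minus strand) encodes A20, a ubiquitin-editing enzyme that shuts the pathway down upstream of the IkB proteins. Of the subunits, Nfkb1 (chr3:135584655-135691547, minus strand) and Nfkb2 (chr19:46304320-46312385, plus strand) encode the precursors of p50 and p52. Rela (chr19:5637483-5648130, plus strand), Rel (chr11:23736847-23770970, minus strand) and Relb (chr7:19606217-19629438, minus strand) encode the subunits with transactivation domains, Relb being the main partner of p52 in the non-canonical pathway. Nfkb2 overlaps AC114539.1 and Psd, and Nfkbib overlaps Sirt2 and Ccer2, all on the opposite strand. Whether the counting used strand is not stated, so counts of these members may include reads of their neighbours.

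Promoters are shown because several members are known to be targets of the factor they restrain. RefSeq promoter windows on GRCm38.p6 were matched by symbol for 7 of the 10 members, with 10 windows in all. Nfkb1, Relb and Nfkbiz were without one. A core form of the kB element, spelled GGG, any 2 bases and TTTCC, was searched on both strands in the 250 bases before each start. It was chosen after the promoters had been seen. It lay there in 4 members, Nfkbia, Tnfaip3, Rel and Nfkb2, and in 1.41% of 32851 mouse promoter windows of that length, counted singly. The looser pattern of GGG, any 5 bases and CC, which contains it, was present in 45.8% of windows. The 3 promoters below carry the match on the strand opposite to the gene, so it reads GGAAATTCCC in Nfkbia and GGAAATCCCC in Tnfaip3 and Rel, in capitals. Each is given 5′ to 3′ on the minus strand, the strand of the gene, and covers chr12:55492648-55492897, chr10:19015411-19015660 and chr11:23770970-23771219, in that order.
Nfkbia: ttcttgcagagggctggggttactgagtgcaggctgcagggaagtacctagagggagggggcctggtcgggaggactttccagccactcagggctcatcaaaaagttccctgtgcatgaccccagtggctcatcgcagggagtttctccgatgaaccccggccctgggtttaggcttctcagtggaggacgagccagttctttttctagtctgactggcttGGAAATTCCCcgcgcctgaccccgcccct
Tnfaip3: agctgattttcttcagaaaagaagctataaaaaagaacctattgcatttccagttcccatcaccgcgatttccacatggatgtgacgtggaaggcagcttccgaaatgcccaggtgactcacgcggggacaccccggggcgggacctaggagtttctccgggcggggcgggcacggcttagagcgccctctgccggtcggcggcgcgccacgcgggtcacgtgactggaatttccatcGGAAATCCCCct
Rel: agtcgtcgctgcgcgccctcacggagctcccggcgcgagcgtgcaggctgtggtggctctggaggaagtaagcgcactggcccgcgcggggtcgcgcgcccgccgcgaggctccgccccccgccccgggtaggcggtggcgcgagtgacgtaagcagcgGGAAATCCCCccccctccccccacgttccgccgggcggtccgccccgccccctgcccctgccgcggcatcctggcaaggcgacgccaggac
The match began 29 bases before the start of Nfkbia, 12 before that of the Tnfaip3 window shown and 91 before that of Rel. A further Tnfaip3 window held no match. In Nfkb2, which has 3 windows, it lay on the strand of the gene 11 bases before 1 start and 225 bases before another. A match describes these letters only and is not evidence of binding.

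The first comparison was between Tet2-/- and WT cells of each population. Over the 6 populations, 8 of 60 tests of members passed an edgeR adjusted p of 0.05 over all genes with at least a 2-fold change, and all 8 were lower in Tet2-/- cells. They were Nfkbia and Relb in CMPs, and Nfkbia, Nfkbiz and Tnfaip3 in both GMPs and MEPs. Among all genes tested, 3.92% were called lower in CMPs, 4.06% in GMPs and 4.21% in MEPs, against 2, 3 and 3 of the 10 members. The study describes its samples as mice, but the labels do not tie libraries to mice, so p-values measure the spread between these libraries. Other measures moved with genotype in the same libraries. In CMPs the summed level of 10 MEP markers was 1102 to 2605 CPM in WT and 4124 to 7916 CPM in Tet2-/- libraries, that of 10 LT-HSC markers 178 to 315 and 130.1 to 176 CPM, and that of 8 B cell markers 163 to 232 and 102 to 123 CPM. In GMPs the MEP markers were at 116 to 154 CPM in WT and 155 to 199 CPM in Tet2-/- libraries, and 5 markers of multipotent cells at 906 to 1136 and 1145 to 1273 CPM. The latter were at 396 to 471 and 492 to 718 CPM in LT-HSCs, and the MEP markers at 138 to 264 and 289.9 to 439 CPM in CLPs. Mitochondrial reads made up 5.94% to 6.57% of counts in WT and 7.85% to 8.37% in Tet2-/- CMPs, 3.64% to 4.6% and 4.74% to 5.09% in GMPs, and 8.73% to 9.02% and 10.0% to 13.1% in ST-HSCs, without overlap, whereas they overlapped in MEPs at 6.85% to 9.18% and 8.96% to 9.74%. The part of these measures in the values of the members was not tested. The RNA came from pools of sorted cells, in which fewer cells expressing a gene and less RNA per cell cannot be told apart.

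Nfkbia, the classical feedback inhibitor, had a lower fitted level in Tet2-/- cells of all 6 populations, and 3 of these falls passed the test. In WT CMPs it stood at 432, 557, 422 and 523 CPM and in Tet2-/- CMPs at 195, 211, 273 and 104. Every Tet2-/- library was below every WT library, and the means were 483 ± 66.8 and 196 ± 69.7 CPM (SD, n = 4 each). The log2 fold change was -1.32 (SE 0.25, edgeR adjusted p = 0.0128). GMPs held 289, 250.1, 183 and 204 CPM in WT and 97, 94, 162 and 75.8 CPM in Tet2-/- libraries, again without overlap. There the log2 fold change was -1.14 (SE 0.23, edgeR adjusted p = 0.0109), and the call was lost without Tet2-/- replicate 5, where the log2 fold change was -0.999 and fell short of 2-fold. In MEPs the WT libraries lay within 961 to 1070.0 CPM and the Tet2-/- libraries were at 550.3, 419, 250.1 and 218 CPM. The difference was -1.50 on the log2 scale (SE 0.26, edgeR adjusted p = 0.00941).

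In the stem cells and CLPs, Nfkbia did not pass the test over all genes. WT LT-HSCs had 157, 96.8 and 211 CPM and Tet2-/- LT-HSCs 108, 77.4, 58.4 and 45.2 CPM, with overlap (log2 fold change -1.08, SE 0.36, edgeR adjusted p = 0.743). ST-HSCs had 219, 346 and 524 CPM in WT and 163, 70.2, 89.2 and 88.9 CPM in Tet2-/- libraries, which did not overlap (log2 fold change -1.79, SE 0.37, edgeR adjusted p = 0.314). CLPs had 2033, 3029, 2784 and 2616 CPM in WT and 853, 623, 985 and 934 CPM in Tet2-/- libraries (log2 fold change -1.63, SE 0.29, edgeR adjusted p = 0.376). The part of the B cell markers, which also stood apart in CLPs, in the CLP values was not tested. The exact permutation test of the libraries, two-sided, gave p = 0.0857 in LT-HSCs and p = 0.0286, the smallest possible, in the other 5 populations. DESeq2 called Nfkbia lower in ST-HSCs and CLPs as well.

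Nfkbiz, whose product acts in the nucleus, was called lower in GMPs and MEPs and did not overlap between genotypes in 5 populations. GMPs had 82.7, 102, 43.2 and 50.1 CPM in WT and 17.8, 20, 18.5 and 7.26 CPM in Tet2-/- libraries (log2 fold change -2.15, SE 0.35, edgeR adjusted p = 0.00299). In MEPs, where it was scarcest, the WT values of 21.4, 24.3, 14.5 and 19.5 CPM stood against 8.21, 3.19, 5.02 and 2.48 CPM (log2 fold change -2.08, SE 0.38, edgeR adjusted p = 0.0114). Both calls held when any 1 library was left out. CMPs had 59.7 to 91.5 CPM in WT and 8.63 to 37.8 CPM in Tet2-/- libraries, with a log2 fold change of -1.36 that missed the threshold (edgeR adjusted p = 0.0776). ST-HSCs had 132 to 159 CPM in WT and 58.8 to 85.4 CPM in Tet2-/- libraries (log2 fold change -1.01, SE 0.19, edgeR adjusted p = 0.314). The CLP libraries, at 343 to 610.5 CPM in WT and 84.2 to 252 CPM in Tet2-/-, were also separate (log2 fold change -1.55, edgeR adjusted p = 0.831). LT-HSCs were the exception, with 54.3, 12 and 42 CPM in WT and 63.9, 50.4, 71.9 and 8.74 CPM in Tet2-/- libraries. These overlapped, with 2 Tet2-/- libraries above and 1 below all WT libraries.

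Tnfaip3, the gene of A20, had the largest fall of the members in GMPs. Its WT libraries held 109, 101, 51.4 and 60.9 CPM and its Tet2-/- libraries 12.3, 11.4, 17.7 and 6.39 CPM. The means of 80.7 ± 28.7 and 11.9 ± 4.62 CPM (SD, n = 4 each) gave a log2 fold change of -2.78 (SE 0.33 and edgeR adjusted p = 0.000315). In MEPs, 177, 230.3, 99.2 and 75.8 CPM in WT stood against 41.6, 13.1, 44.5 and 34.9 CPM in Tet2-/- libraries. The log2 fold change was -2.13 (SE 0.45, edgeR adjusted p = 0.0232), and the call was lost without Tet2-/- replicate 5, without WT replicate 2 or without WT replicate 3, although the groups did not overlap. In CMPs the means were 26.2 ± 8.73 and 26.8 ± 12.2 CPM (SD, n = 4 each) and the libraries were interleaved. In CLPs the WT libraries spread from 511 to 1408 CPM and the Tet2-/- libraries from 51.0 to 412 CPM (log2 fold change -2.12, edgeR adjusted p = 0.977). ST-HSCs had 68.0, 113 and 81.3 CPM in WT and 2.90, 54.1, 33.4 and 18.0 CPM in Tet2-/- libraries (log2 fold change -1.66, edgeR adjusted p = 0.834). In LT-HSCs 3 of the 4 Tet2-/- libraries sat at 10.8 to 11.4 CPM and replicate 5 at 32.6 CPM, within the WT range of 13.8 to 38.0 CPM.

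**Figure D1:**
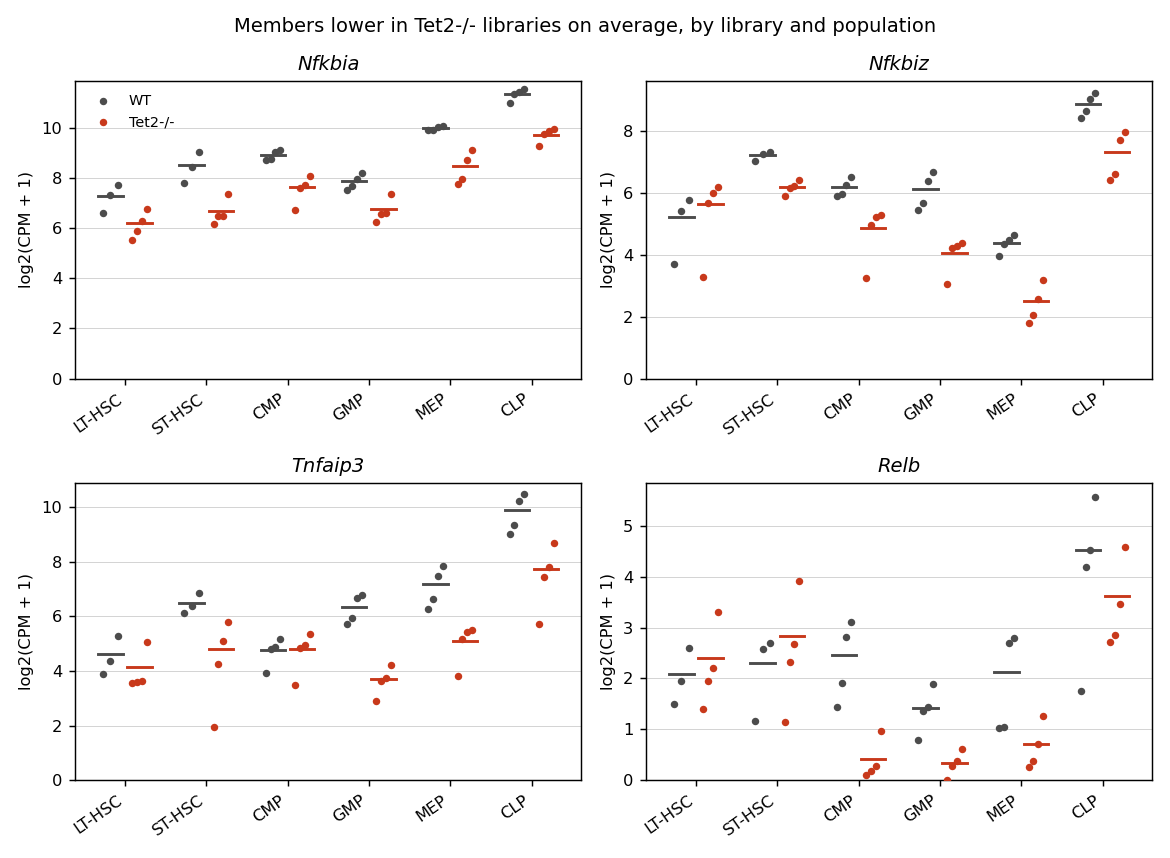
Levels of Nfkbia, Nfkbiz, Tnfaip3 and Relb, the 4 members called lower in Tet2-/- cells for the mean over the populations, as log2(CPM + 1) on the vertical axis for each of the 6 populations; points are libraries, drawn in order of value, and bars are group means of CPM on that scale. Tet2-/- points of Nfkbia lie below all WT points in every population but LT-HSC, and CLP is the highest population for each gene in WT.

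Neither of the other cytoplasmic inhibitors was called in any population. Nfkbib in GMPs had 38.7 to 46.1 CPM in WT and 40.8 to 58.3 CPM in Tet2-/- libraries, and in MEPs 17.3 to 38.2 and 16.8 to 25.3 CPM. In CLPs its WT libraries kept within 55.4 to 69.5 CPM while the Tet2-/- libraries ranged from 23.2 to 91.6 CPM. Nfkbie was the one inhibitor for which every Tet2-/- LT-HSC library was above the WT libraries, at 7.09, 9.42, 16.1 and 7.09 CPM against 2.78, 5.83 and 4.33 CPM in WT. These groups did not overlap, but the log2 fold change of 1.21 (SE 0.51) had an edgeR adjusted p of 0.910. In MEPs its values were 3.82 to 7.07 CPM in WT and 1.06 to 4.18 CPM in Tet2-/- libraries.

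Among the subunits only Relb was called in a single population. CMPs had 7.69, 6.0, 1.70 and 2.74 CPM in WT and 0.127, 0.945, 0.207 and 0.0679 CPM in Tet2-/- libraries, with no overlap and a log2 fold change of -3.66 (SE 0.93 and edgeR adjusted p = 0.0428). That call was lost when any of 7 of the 8 libraries was left out, the exception being Tet2-/- replicate 3, with log2 fold changes of -4.88 to -3.29 over all settings. In GMPs Relb was at 0.730 to 2.72 CPM in WT and 0 to 0.528 CPM in Tet2-/- libraries without overlap (log2 fold change -2.60, edgeR adjusted p = 0.148). MEPs had 1.05 to 5.97 CPM in WT and 0.196 to 1.38 CPM in Tet2-/- libraries, which overlapped (log2 fold change -2.37, edgeR adjusted p = 0.180). DESeq2 called Relb lower in GMPs and MEPs as well as in CMPs. In both stem cell populations and in CLPs the genotypes overlapped.

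Rel, the subunit c-Rel, had 22, 18.7, 12.1 and 13.8 CPM in WT MEPs and 11.0, 8.73, 4.76 and 2.08 CPM in Tet2-/- MEPs. The groups were separate but the log2 fold change of -1.34 did not pass (edgeR adjusted p = 0.169). In LT-HSCs its WT values of 27.7 to 35.5 CPM lay inside the Tet2-/- range of 18.2 to 49.7 CPM. Nfkb1, the precursor of p50, had 47.3 ± 7.89 CPM in WT and 65.3 ± 13.1 CPM in Tet2-/- MEPs and 60.2 ± 1.09 against 60.9 ± 20.3 CPM in LT-HSCs (SD, n = 4, except 3 WT LT-HSCs). Rela had 63.1 ± 21.2 CPM in WT and 47.6 ± 8.75 CPM in Tet2-/- GMPs (SD, n = 4 each), with overlap. Nfkb2 was low, at 2.18 to 13.3 CPM in every WT library outside the CLPs, and was not called in any population.

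**Figure D2:**
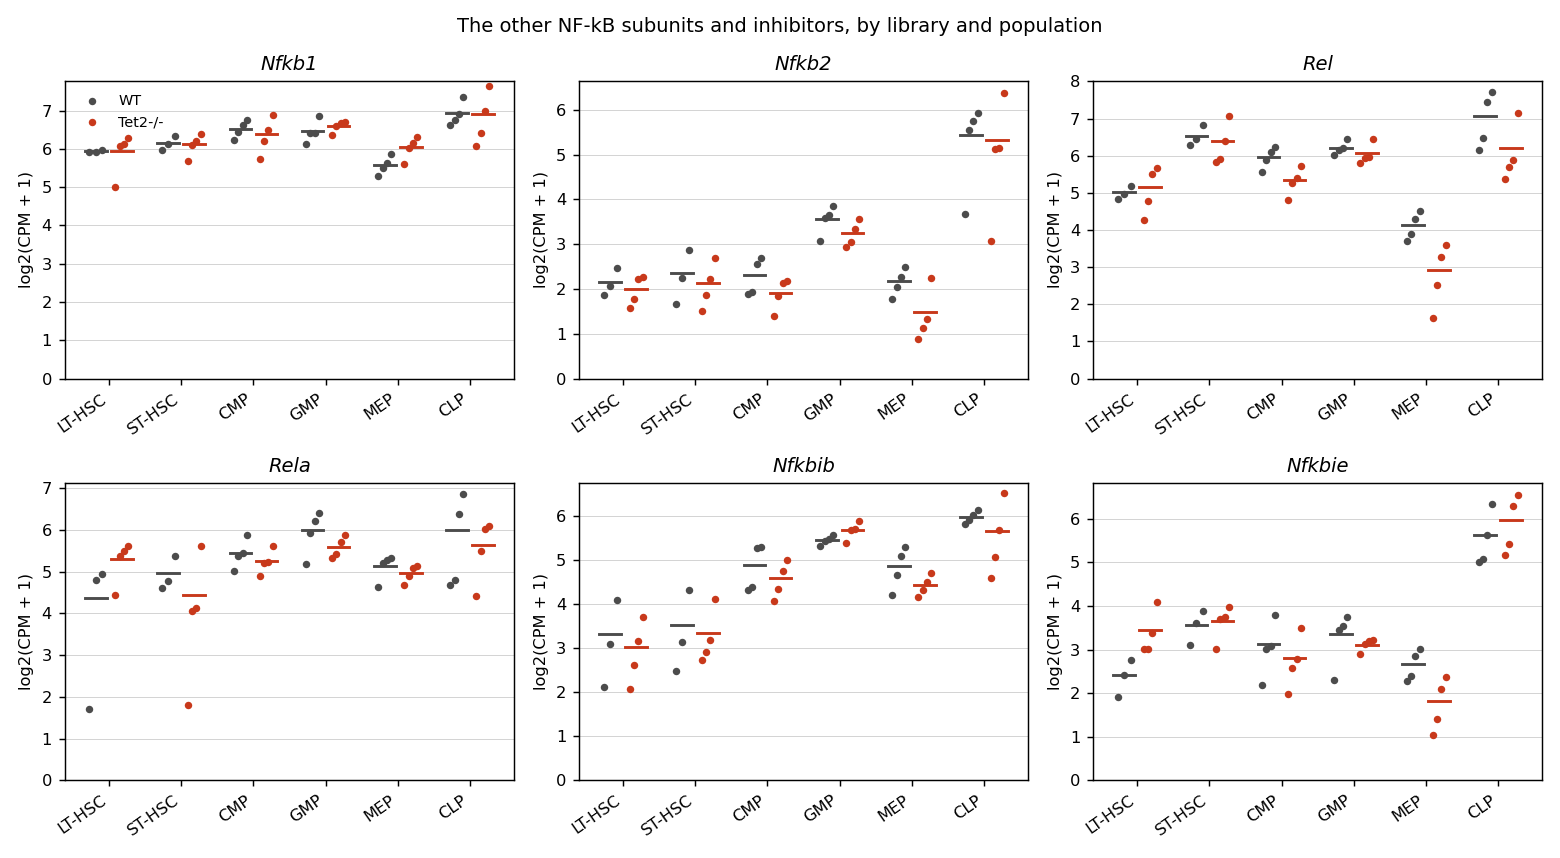
Levels of the 6 members not called for the mean effect of Tet2 genotype, Nfkb1, Nfkb2, Rel, Rela, Nfkbib and Nfkbie, as log2(CPM + 1) on the vertical axis for each population; points are libraries, drawn in order of value, and bars are group means of CPM on that scale. WT and Tet2-/- points overlap in most panels, and Nfkb2 and Nfkbie are highest in CLPs.

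In LT-HSCs no member passed edgeR's test, 2 had an unadjusted p under 0.05 (Nfkbia and Nfkbie) and DESeq2 called 0. In ST-HSCs likewise 0 passed, 2 had an unadjusted p under 0.05 (Nfkbia and Nfkbiz) and DESeq2 called 1. CLPs also gave 0 calls, with 3 members under an unadjusted p of 0.05 and 2 called by DESeq2, and leaving out any CLP library kept 0 calls. In 1 fit of all 46 libraries, however, Nfkbia was called lower in ST-HSCs, and Nfkbia, Nfkbiz and Tnfaip3 in CLPs. Few genes of any kind were called in these populations: 0.0245% of those tested in LT-HSCs, 0.0185% in ST-HSCs and 0.00766% in CLPs, in either direction. In order from LT-HSC through ST-HSC, CMP, GMP and MEP to CLP, 1, 3, 3, 4, 4 and 3 of the 10 members had groups without overlap. Over all genes tested this was the case for 7.28%, 8.46%, 17.8%, 15.7%, 14.9% and 3.49%. In the same order, the median log2 fold change of the members was 0.11, -0.20, -0.46, -0.41, -1.21 and -0.60. The median of all genes tested lay between 0.03 and 0.07 in each.

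A fit of all 46 libraries gave the mean effect of Tet2 genotype over the 6 populations. It treated the libraries as independent, although those of 1 genotype and replicate number may share a mouse. With these as a random block the mean effect also gave 4 calls. For the mean effect 4 of the 10 members were called lower in Tet2-/- cells and 0 were called higher, while 1.76% of all genes were called lower. Nfkbia had a mean log2 fold change of -1.41 (SE 0.13 and edgeR adjusted p = 5.39e-10), Nfkbiz of -1.28 (SE 0.20, edgeR adjusted p = 1.53e-05) and Tnfaip3 of -1.53 (SE 0.24, edgeR adjusted p = 2.45e-05). Relb had -1.42 (SE 0.39, edgeR adjusted p = 0.0158), a call lost without Tet2-/- replicate 4, without WT replicate 2 or without WT replicate 5 of every population. So 3 of the 5 inhibitors and 1 of the 5 subunits were called lower on average, and no test compared inhibitors with subunits. Rel, at -0.50, came nearest among the others (edgeR adjusted p = 0.0548). Nfkb1 at 0.07, Rela at -0.12, Nfkbie at -0.01, Nfkbib at -0.23 and Nfkb2 at -0.40 did not pass the test.

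Whether the genotype effect differed between populations was tested in the same fit by an interaction term. No member passed (lowest edgeR adjusted p = 0.192), while 2.65% of all genes did. Relb, Nfkbie, Nfkbiz and Tnfaip3 had unadjusted p-values under 0.05, and DESeq2 called 1 member, Relb. The test covered all populations jointly and did not compare the interleaved Tnfaip3 values of CMPs directly with its fall in GMPs and MEPs. A difference between these is not shown.

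**Figure D3:**
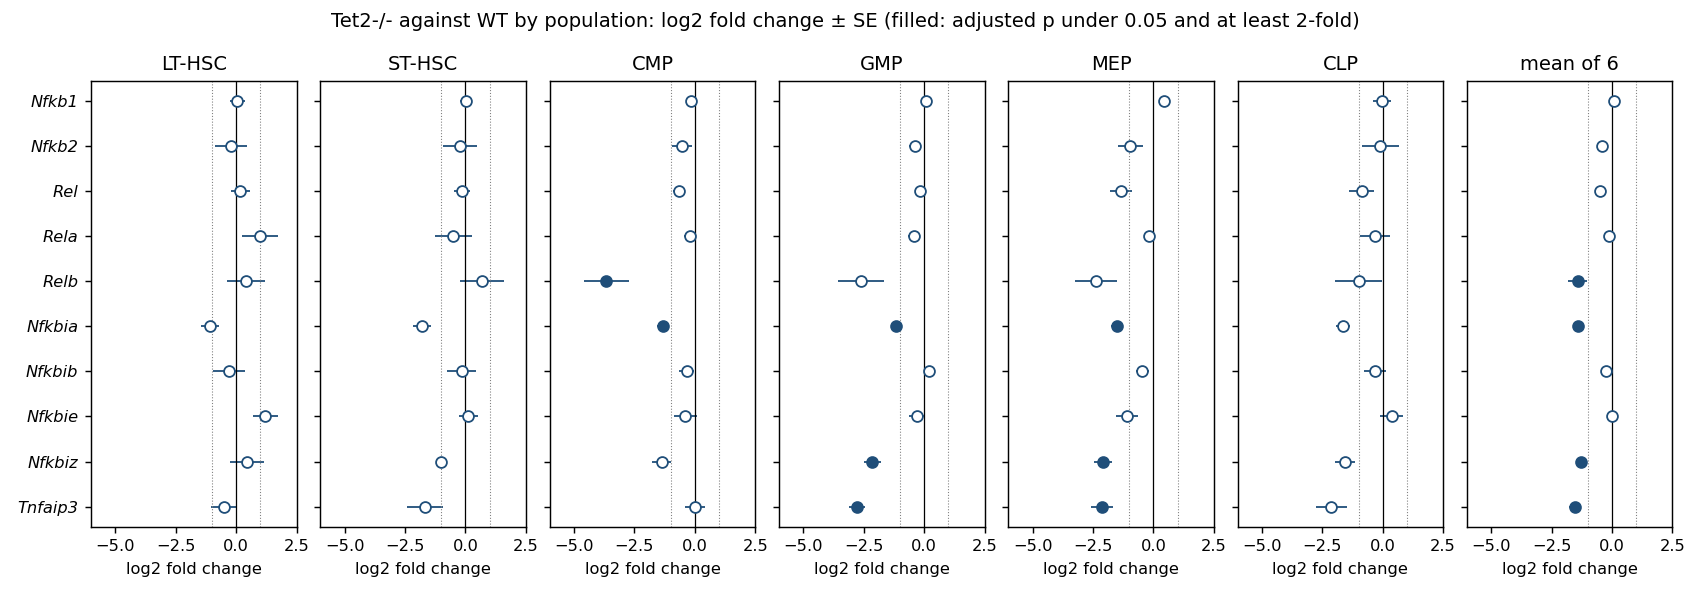
Fold change between Tet2-/- and WT cells for the 10 members in each population and for the mean of the 6 populations, as log2 fold change on the horizontal axis with bars of 1 SE; filled points passed an edgeR adjusted p of 0.05 with at least 2-fold. All filled points lie to the left of 0, with 8 in CMPs, GMPs and MEPs and 4 for the mean.

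The falls of Nfkbia and Nfkbiz were accompanied by those of other quickly induced transcripts. The summed level of 17 immediate early genes, a class that dissociation and sorting of cells can induce, was 2894 to 4653 CPM in WT and 825 to 1752 CPM in Tet2-/- CMPs. It was 2955 to 3797 and 922 to 1775 CPM in GMPs, 1139 to 1454 and 268 to 629 CPM in MEPs, and 17307 to 28225 and 4821 to 10182 CPM in CLPs, without overlap in these 4 populations. In LT-HSCs, at 3121 to 4310 and 2816 to 5132 CPM, and in ST-HSCs, at 2832 to 4153 and 2443 to 4412 CPM, the ranges overlapped. Of the 17 genes, 8 were called lower in CMPs and 5 in GMPs, and 5 of 16 tested in MEPs. Among all genes tested, 3.92%, 4.06% and 4.21% were called lower there, in that order. In LT-HSCs, ST-HSCs and CLPs 0 immediate early genes were called. Of all genes, 0.0245%, 0.0185% and 0.00766% were called there in either direction. In these 3 populations 3, 5 and 11 of the immediate early genes had an unadjusted p under 0.05. In ST-HSCs Nfkbia and Nfkbiz did not pass the test, their groups did not overlap, and the immediate early sum overlapped between genotypes. The part of the immediate early genes in the falls of the members was not tested. Within groups, over the 46 libraries, the deviations of Nfkbia correlated with those of the mean immediate early level at r = 0.637 and those of Nfkbiz at r = 0.455. For Tnfaip3 and Relb the values were lower, at r = 0.246 and r = 0.103. All are given as a description, since the values of 1 library share its depth and scaling.

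**Figure D4:**
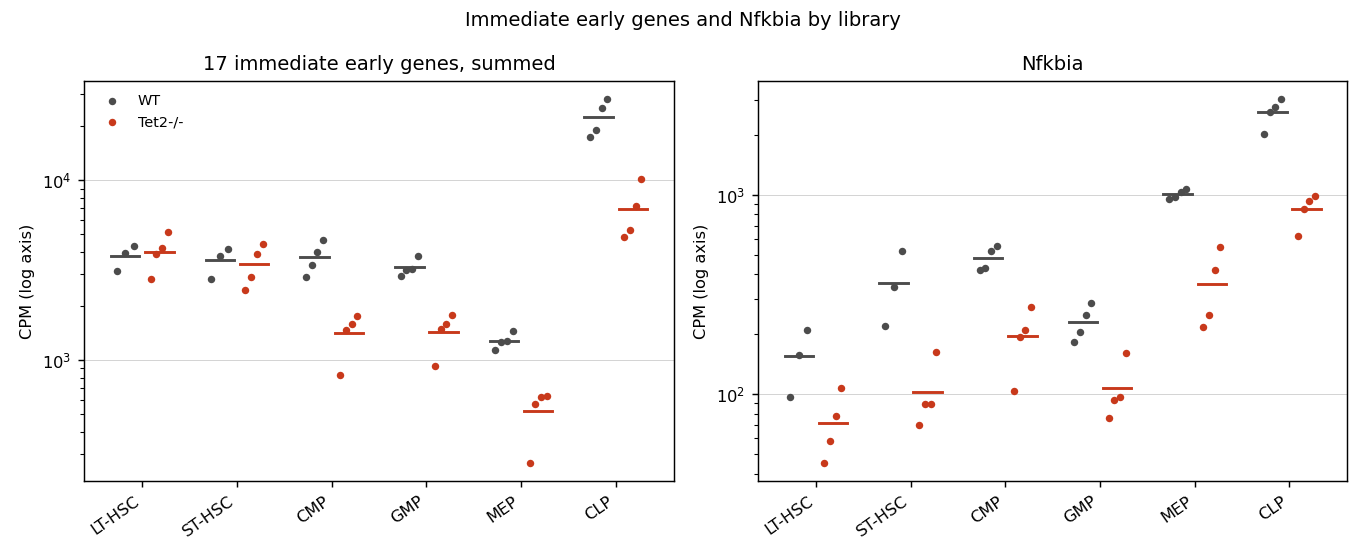
Summed level of 17 immediate early genes and level of Nfkbia by library, both in CPM on a log axis, for WT and Tet2-/- libraries of each population. The immediate early sum of Tet2-/- libraries is below all WT libraries in CMP, GMP, MEP and CLP and overlaps in LT-HSC and ST-HSC, whereas Nfkbia is separate in all populations but LT-HSC.

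Other genes of the pathway were counted by role. Of 24 receptors and adaptors, 1 was called lower in each of CMPs, GMPs and MEPs, with 21, 21 and 20 of them tested. This share was near that of all genes called lower, 3.92%, 4.06% and 4.21%. The gene was Tradd, the adaptor of TNF receptor 1, in CMPs (log2 fold change -1.47, edgeR adjusted p = 0.00950) and MEPs (-2.23, edgeR adjusted p = 0.00164), and Malt1, the paracaspase that links antigen receptors to NF-kB, in GMPs (-2.15, edgeR adjusted p = 0.00935). Of 14 kinases and their partners, Azi2, which binds TBK1, was lower in GMPs (-1.77, edgeR adjusted p = 0.000303) and MEPs (-1.81, edgeR adjusted p = 0.00924). None of 16 ubiquitin enzymes and related brakes other than A20 was called by edgeR in any population, with 0 to 5 of them at an unadjusted p under 0.05. Nfkbid, which encodes the nuclear inhibitor IkB-NS, was the called member of 3 further IkB genes. Its log2 fold change was -2.06 in CMPs (edgeR adjusted p = 0.0484), -1.24 in GMPs (edgeR adjusted p = 0.00975) and -2.56 in MEPs (edgeR adjusted p = 0.00174), and -1.90 for the mean effect (edgeR adjusted p = 3.14e-08).

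A list of 46 genes known as NF-kB targets, which includes Nfkbid, had 5 of 37 tested called lower in CMPs. GMPs had 4 of 39, MEPs 3 of 31, LT-HSCs, ST-HSCs and CLPs 0, and none was higher, while 3.92%, 4.06% and 4.21% of all genes were called lower in CMPs, GMPs and MEPs. In LT-HSCs, ST-HSCs and CLPs 1, 10 and 6 of them had an unadjusted p under 0.05. Among them were Junb, an AP-1 subunit and itself an early response gene, at -2.27 in CMPs (edgeR adjusted p = 0.00258) and -2.68 in MEPs (edgeR adjusted p = 0.00753). Tnf, the cytokine that is both product and inducer of the pathway, was at -1.99 in CMPs (edgeR adjusted p = 0.00572). Pim1, a survival kinase, was at -2.90 in GMPs (edgeR adjusted p = 0.00265), and Cxcl2, a neutrophil-attracting chemokine, was at -1.69 in GMPs (edgeR adjusted p = 0.0233) and -2.24 in MEPs (edgeR adjusted p = 0.00601). The median log2 fold change of the tested targets, from LT-HSC through ST-HSC, CMP, GMP and MEP to CLP, was -0.13, -0.34, -0.89, -0.45, -0.52 and -0.33.

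The second comparison was between populations within 1 genotype. In WT cells 9 of the 10 members differed among the 6 populations by edgeR's F test, Rela being the exception (adjusted p = 0.160), and so did 44.6% of all genes tested. In Tet2-/- cells 8 members differed, without Nfkb1 (edgeR adjusted p = 0.0830) and Rela (edgeR adjusted p = 0.331), against 40.2% of all genes. CLPs had the highest mean of every member but Rela in WT, and of every member but Rel and Nfkbib in Tet2-/- cells. With RLE scaling CLPs were also the highest for Rela in WT and for Nfkbib in Tet2-/- cells, so these exceptions rest on the scaling. The B cell marker sum, at most 232 CPM in the other WT libraries, was also far higher in the WT CLP libraries (145492 to 278768 CPM). Pax5 and Vpreb1 of that list were at 0 in every WT CLP library. The summed level of the immediate early genes was likewise higher there (17307 to 28225 against at most 4653 CPM). The part of either in the CLP levels was not tested.

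Nfkbia ran in the order CLP, MEP, CMP, ST-HSC, GMP, LT-HSC in WT cells. Its mean was 2615 ± 424 CPM in CLPs and 155 ± 57.1 CPM in LT-HSCs, a 16.9-fold range. Neighbours in that order differed between CLP and MEP and between MEP and CMP, and the remaining neighbours did not pass the test. Of those, ST-HSC over GMP (0.63 on the log2 scale, SE 0.26, edgeR adjusted p = 0.0960) and GMP over LT-HSC (0.62, SE 0.26, edgeR adjusted p = 0.105) came nearest. Tnfaip3 had the widest range, 39.6-fold, from 942 ± 429 CPM in CLPs down to 23.8 ± 12.6 CPM in LT-HSCs, with MEP and ST-HSC next below the CLPs. Nfkbiz ranged 23.7-fold, from 471 ± 120.3 CPM in CLPs to 19.9 ± 4.13 CPM in MEPs. By mean, MEPs therefore ranked second for Nfkbia and Tnfaip3 but last for Nfkbiz. They were not separated from ST-HSCs for Tnfaip3 (edgeR adjusted p = 0.311) or from LT-HSCs for Nfkbiz (edgeR adjusted p = 0.117). Nfkbie ranged 11.2-fold and Nfkbib 6.95-fold, both lowest in LT-HSCs.

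Among the subunits, WT means spanned 2.57-fold for Nfkb1, 3.20-fold for Rela and 8.06-fold for Rel, compared with 12.2-fold for Nfkb2. Relb was spread from 2.36 to 46.5 CPM within WT CLPs, and no neighbouring pair of populations passed the test for it. Rel stood at 134 ± 66.2 CPM in CLPs, 92.2 ± 18.6 in ST-HSCs and 16.7 ± 4.51 CPM in MEPs. Only 1 pair of its neighbours, LT-HSC and MEP, had an edgeR adjusted p under 0.05. MEPs were lower there, though by under 2-fold (-0.94 on the log2 scale, edgeR adjusted p = 0.0442). Nfkb2 was at 42.5 ± 21.2 CPM in CLPs and 10.9 ± 2.49 CPM in GMPs, and only that pair of neighbours passed the test. Shares of the 5 subunits per length depended on the gene lengths used. With the exon lengths of the gene models or with those of the second table, Rela had the largest mean share in WT MEPs (58.5% or 38.2%) and Rel in WT ST-HSCs (41.4% or 55.7%). In the other 4 WT populations the leading subunit changed with the lengths: from Rela to Rel in CMPs, GMPs and CLPs and from Rela to Nfkb1 in LT-HSCs. Reads do not show which dimers form.

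Genes can also be followed along 5 steps between populations. In WT cells 13 of 50 member tests passed. From ST-HSC to CLP 6 members rose, where 10.2% of all genes did: Nfkb2 by 3.35 on the log2 scale, Tnfaip3 by 3.40 (edgeR adjusted p = 4.29e-05), Nfkbia by 2.83 (edgeR adjusted p = 5.80e-07), Nfkbib by 2.54, Nfkbie by 2.12 and Nfkbiz by 1.64. The Nfkbie call was lost without WT replicate 2. From CMP to MEP, where 6.45% of all genes were called in either direction, Nfkbia rose by 1.01 (edgeR adjusted p = 0.0103) and Tnfaip3 by 2.41 (edgeR adjusted p = 0.000878), whereas Rel changed by -1.94 (edgeR adjusted p = 0.000195) and Nfkbiz by -1.91 (edgeR adjusted p = 0.00161). The rise of Nfkbia, just over 2-fold, was lost without WT replicate 2 or 4 and with no low-count filter, and the fall of Nfkbiz without WT replicate 5.

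From CMP to GMP Nfkbia fell, whereas it had risen from CMP to MEP, and Tnfaip3 rose in both steps. Nfkbia changed by -1.04 (edgeR adjusted p = 0.0147) and Tnfaip3 by 1.64 (edgeR adjusted p = 0.0259) on the log2 scale, with 3.15% of all genes called in either direction. The first was lost without WT replicate 3, 4 or 5, and the second without WT replicate 2, 3 or 5. From ST-HSC to CMP Tnfaip3 changed by -1.73 (edgeR adjusted p = 0.0211), with 1.23% of genes called lower, and this call was lost without WT replicate 2, 3 or 5. From LT-HSC to ST-HSC all 10 members had a positive estimate and 0 passed edgeR's test (0.175% of all genes did). An unadjusted p under 0.05 was found for 5 and DESeq2 called 4, counts given without their share over all genes. Nfkbiz, at 2.06, was nearest (edgeR adjusted p = 0.0509), followed by Rel at 1.58 (edgeR adjusted p = 0.0696).

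In Tet2-/- cells 8 of 50 step tests passed. From ST-HSC to CLP, where 9.36% of all genes rose, 5 members did: Nfkb2 by 3.49, Nfkbia by 3.02, Tnfaip3 by 2.96, Nfkbib by 2.40 and Nfkbie by 2.40 on the log2 scale. The Tnfaip3 call was lost without Tet2-/- replicate 4. From CMP to MEP, where 3.40% of genes were called lower, Rel changed by -2.55 and Nfkbiz by -2.57, and both calls were lost without replicate 4, that of Nfkbiz also without replicate 3. Relb changed by -4.11 from ST-HSC to CMP (edgeR adjusted p = 0.0488), with 1.29% of genes lower, and leaving out any of the 4 replicates ended that call. From LT-HSC to ST-HSC 0 members passed edgeR's test (0.118% of all genes did), with 1 at an unadjusted p under 0.05 and 0 by DESeq2. From CMP to GMP 0 passed (3.08% of all genes did), with 3 at an unadjusted p under 0.05 and 1 by DESeq2.

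Among members, Nfkbia and Nfkbiz deviated together within groups (r = 0.631 over 46 libraries), as did Nfkbia and Nfkbib (r = 0.518). Over all 46 libraries, populations and genotypes included, genes with patterns most like those of the members were sought among 8871 genes by the correlation of log2 levels. For Nfkbiz these were Zfp36, an mRNA-destabilising protein (r = 0.872), and Nfkbid (r = 0.863). For Tnfaip3 the second closest was Nfkbia (r = 0.801), although within groups the deviations of this pair were at r = -0.053. Relb was closest to Ppp1r15a, a stress-induced phosphatase subunit (r = 0.776), and Rel to Ncf4, an NADPH oxidase subunit (r = 0.869). For Nfkbib the closest was Dohh (r = 0.937), for Nfkb2 Rinl (r = 0.899), for Nfkbie the kinase Pim2 (r = 0.870), for Nfkb1 the selectin ligand Selplg (r = 0.735) and for Rela Cic (r = 0.719). These values describe likeness over libraries that share populations and carry no test.

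The second set of LT-HSC libraries asked how the members stood when Sting was lost alone or together with Tet2. Nfkbia held 721, 724 and 593 CPM in the libraries labelled WT, 1692, 1048 and 1137 CPM in those labelled Sting-/- and 73.3, 97.5 and 37.9 CPM in those labelled DKO. The 3 groups did not overlap. Against WT the DKO libraries had a log2 fold change of -3.37 (SE 0.40 and edgeR adjusted p = 0.0132), where 0.616% of all genes were called lower. Against Sting-/-, whose libraries share expression of the Y-linked genes with DKO although at other levels (Eif2s3y at 154 to 213 and 282 to 323 CPM), it was -4.22 (SE 0.42, edgeR adjusted p = 0.0196), where 0.159% of all genes were called lower. The exact permutation p cannot go below 0.10 with 3 against 3. The first call was lost without any 1 library other than DKO replicate 2, and the second without any 1 of the 6 libraries. The estimates then stayed within -3.67 to -3.06 and -4.52 to -3.94. Both comparisons use the same DKO libraries and are not independent.

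Between Sting-/- and WT the log2 fold change of Nfkbia was 0.94 (SE 0.25, edgeR adjusted p = 0.709). No member passed there, as did 0 of the 9969 genes tested, so the count says nothing of the members in particular. Of them, 1 had an unadjusted p under 0.05, and DESeq2 called 1, Relb. The immediate early sum was 8342 to 18989 CPM in WT, 9349 to 11271 CPM in Sting-/- and 5413 to 12513 CPM in DKO libraries, so it overlapped where Nfkbia did not. Its part in the result was not tested.

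Nfkbib had 120.1, 23.5 and 47.4 CPM in WT, 117, 52.1 and 61.0 CPM in Sting-/- and 9.84, 4.64 and 11.4 CPM in DKO libraries. The DKO libraries were below all others, with log2 fold changes of -2.96 against WT (edgeR adjusted p = 0.343) and -3.14 against Sting-/- (edgeR adjusted p = 0.462) that did not pass. DESeq2 called Nfkbib lower in both comparisons, and Rel and Relb lower in DKO against WT. Rel ran at 78.0, 10.0 and 3.24 CPM in WT, 16.2, 11.7 and 8.10 CPM in Sting-/- and 1.30, 3.98 and 0.324 CPM in DKO libraries. Rela had 202, 75.8 and 85.3 CPM in WT, 0.573, 70.7 and 84.4 CPM in Sting-/- and 21.9, 34.5 and 0.0924 CPM in DKO libraries, so DKO and WT were separate, although neither edgeR nor DESeq2 called it. Tnfaip3 varied within groups from 0.178 to 11.8 CPM in WT, 0 to 45.9 CPM in Sting-/- and 0.832 to 105 CPM in DKO libraries, so no difference was detectable. Nfkbiz ranged from 11.6 to 134 CPM in WT, 59.7 to 132 CPM in Sting-/- and 19.1 to 90.1 CPM in DKO libraries. Nfkb1 overlapped between the groups, at 152 to 183, 130.1 to 320.3 and 118 to 339 CPM.

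Relb was listed at 17.7, 0 and 15.8 CPM in WT libraries, at most 0.0163 CPM in Sting-/- libraries and 0 in all 3 DKO libraries, and Nfkb2 was at or under 3 counts in 2 WT, 3 Sting-/- and 1 DKO libraries. No fold change is given for these. For DKO against WT, 3 of the tested members had groups without overlap, where 21.1% of all genes did, and for DKO against Sting-/- 3, where 15.6% did. For Sting-/- against WT it was 1, where 11.5% did. Whether the sets were prepared together is not stated in the sources used here. Nfkbia was at 155 ± 57.1 CPM in WT LT-HSCs of the first and 679 ± 74.9 CPM in those of the second (SD, n = 3 each). Levels were not compared across the sets by a test.

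**Figure D5:**
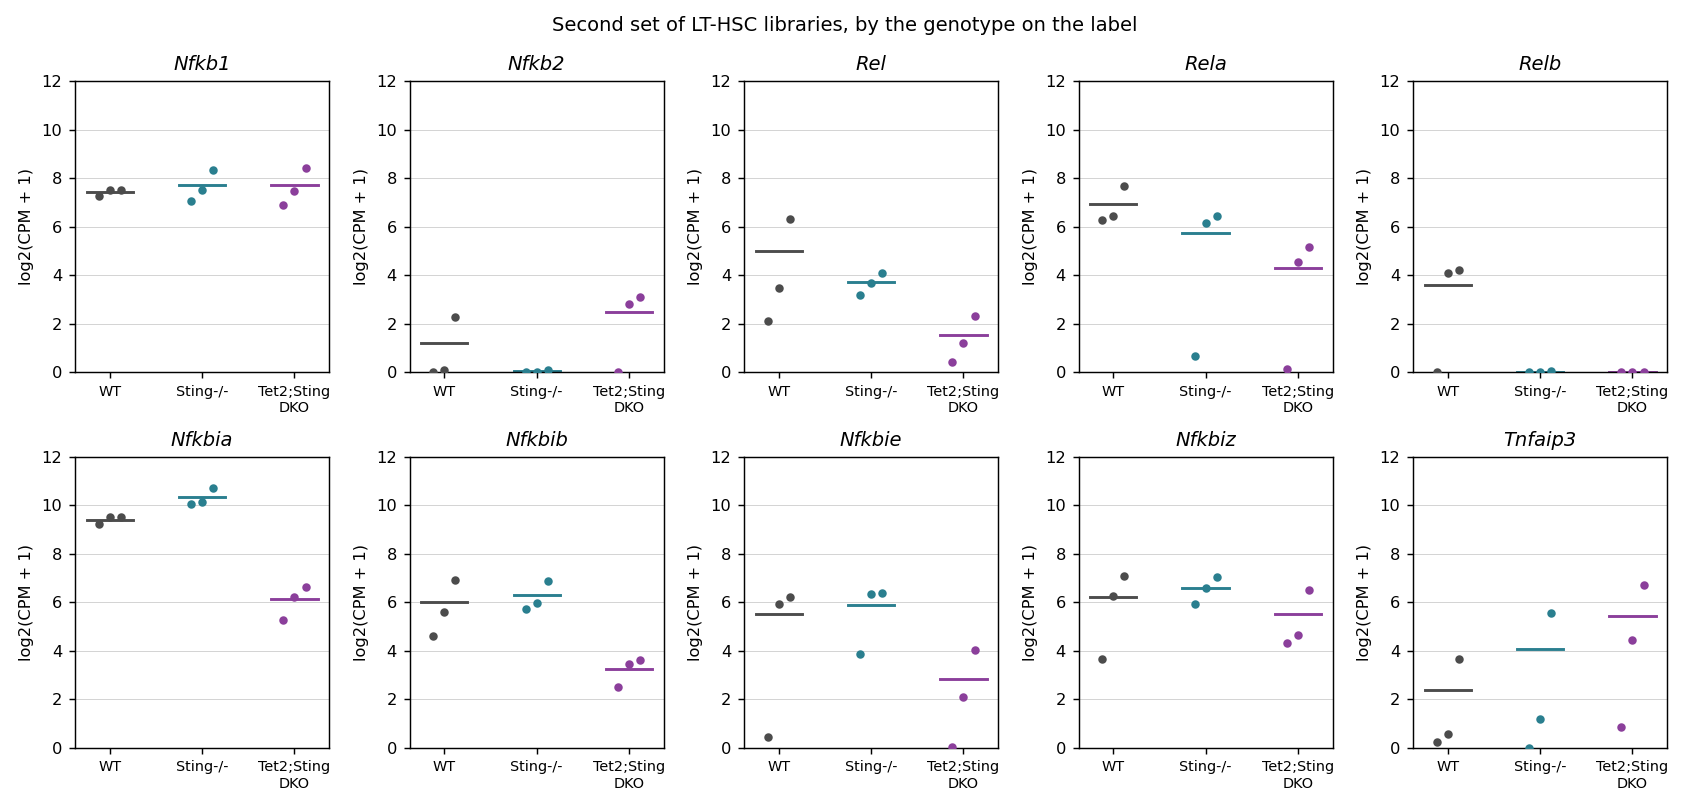
Levels of the members in the second set of LT-HSC libraries, as log2(CPM + 1) on the vertical axis, for 3 libraries each labelled WT, Sting-/- and Tet2;Sting DKO, with bars at group means of CPM on that scale. Nfkbia in the DKO libraries lies below all WT and Sting-/- libraries, and Relb and Nfkb2 are at or near 0 in several libraries.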

How the data were processed

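Sorted bone marrow populations were profiled by bulk RNA-seq in 55 libraries. Raw counts of reads per gene were deposited by the authors in 2 tables, without normalization. The methods state trimming with Trim Galore v0.5.0 and mapping by Hisat2 v2.1.0 to mm10. The submitters' processing notes list Trim Galore 0.6.7, HISAT2 7.5.0, DESeq2, mm10 and mm9. The counter and annotation are not given in the sources used here. The second table also gives a gene length per row; 2 broken lines of it were not used.

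The quasi-likelihood F test of edgeR 4.0.16 (R 4.3.3) was applied to the counts after filterByExpr and TMM scaling (prior count 2 for log2 fold changes). Each comparison of 2 groups was fitted on its own libraries; the mean effect, the interaction and the populations used all libraries concerned. Calls needed a Benjamini-Hochberg adjusted p of 0.05 over all genes tested and at least 2-fold; F tests over several groups used the adjusted p alone. CPM used TMM-scaled library sizes. Groups did not overlap where every library of one was above every library of the other. Single values had a two-sided exact permutation test on log2(CPM + 1). At most 3 counts was taken as the floor. The procedure was tested on simulated data. Alternatives were DESeq2 1.42.0, RLE scaling, no low-count filter, no fold minimum, 1 fit of all libraries, a replicate block (limma 3.58.1 where random) and leaving out each library. Counts of members by DESeq2 or by unadjusted p are given without the share over all genes and are not read as results about the members. Of the other lists, at most the 3 called genes of largest change in each direction, with a mean of at least 10 CPM, are named. Members and lists were chosen with earlier results of these data known. The closest gene to Nfkbia by correlation is not reported here.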

Additional observations from a re-analysis of the deposited data

Results flagged for a closer look

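Relb in CMPs had 1 Tet2-/- library far from the other 3. Replicate 3 held 0.945 CPM, while the others held 0.0679 to 0.207 CPM, and all 4 were below the WT libraries. Tnfaip3 in LT-HSCs likewise had 1 Tet2-/- library apart, replicate 5 at 32.6 CPM against 10.8 to 11.4 CPM in the others. These were 2 of 100 groups of 4 libraries examined with Dixon's test at the 95% level, a number below the 1 in 20 that chance gives.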

How the results depend on the processing

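Of 35 fold changes of members that passed (the F tests among populations aside), 18 passed under every alternative and 17 were lost under at least 1. None of the 35 reversed. Over these and 42 further member fold changes with only an unadjusted edgeR p under 0.05, none of 834 alternative values reversed. The calls over 6 populations, 8, became 14 with DESeq2 and 5 with the replicate block, and 7 to 8 with a library left out. The interaction gave 0, 1 with DESeq2 and 0 to 1 with a replicate number left out, the 1 without Tet2-/- replicate 5. Steps between populations gave 13 calls in WT, 22 with DESeq2 and 9 to 13 with a replicate number left out, and 8 in Tet2-/- cells, 7 to 12 under other settings and 4 to 9 with a replicate number left out, the 4 without replicate 4. The second set gave 2 calls, 7 with DESeq2 and 0 to 1 with a library left out. The mean effect gave 4 calls under every other setting and 3 to 4 with a replicate number left out. Relb in CMPs was also lost with no low-count filter and in 1 fit of all libraries, and Nfkbia in GMPs and Tnfaip3 in MEPs in 1 fit of all libraries, which gained Nfkbia in ST-HSCs and Nfkbia, Nfkbiz and Tnfaip3 in CLPs; the cause was not tested.

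Replicate numbers did not pair the libraries: the correlation of deviations was -0.03 to 0.04 between genotypes, -0.015 to 0.114 between populations and -0.085 to 0.036 in the second set. With the replicate block, calls for Tet2-/- against WT were 0 in CMPs, where Nfkbia and Relb were lost, 3 in GMPs and 2 in MEPs, where Tnfaip3 was lost, the mean effect gave 4, the populations 9 and 8, the steps 16 and 8 and the second set 2.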
